A study of Oryza sativa with 6 samples.

Results

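The genes described here make and sense brassinosteroids in rice. They are 4 enzymes of synthesis (D2, D11, DWARF4 and BRD1) and 3 signalling proteins (BRI1, BAK1 and BZR1), chosen by their locus identifiers among 29689 loci on the array. Every probe whose name starts with one of these loci was taken, which gave 15 of 42418 probes, and 14 of the 15 were bright enough to test. Expression was measured in Nipponbare plants, wild-type or carrying a CRISPR/Cas9-induced knockout of OsCAld5H1, the coniferaldehyde 5-hydroxylase of syringyl lignin synthesis. RNA came from the mid-part of the internode second from the top, sampled at heading, with 3 biological replicates and thus 3 arrays per genotype. The knockout plants were of generation T2 and all from the single line KO-a-9-2, so genotype and line cannot be told apart. No generation is given for the wild-type plants.

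Brassinosteroids are steroid hormones that promote cell elongation in stems and leaves. At the cell surface the receptor kinase BRI1 binds the hormone and pairs with the co-receptor kinase BAK1. A phosphorylation cascade then inactivates GSK kinases, which leaves the transcription factor BZR1 free to act in the nucleus. BZR1 represses genes of hormone synthesis, so that synthesis is under negative feedback. Rice mutants short of the hormone or of its receptor are dwarfs with erect leaves, and the second internode is among the parts they shorten most.

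All values below are log2 signals relative to the 75th percentile of the same array, so that 0 is a bright probe and -6 a dim one. The brightness of a spot depends on its probe sequence as well as on the transcript, so levels of different probes are not ranked against each other. Stem identity genes OSH1 and OSH15 and the 3 secondary wall cellulose synthases were well above background on all 6 arrays, and the panicle genes MADS1 and MADS7 on none. MADS8, another panicle gene, was well above background on 2 knockout arrays only. The summed linear signal of these 3 panicle genes was 0.0036 to 0.0048 times the 75th percentile in wild-type and 0.0056 to 0.068 in knockout arrays, and its part in any result was not tested. The sum of 3 green tissue genes was 131 to 214 in wild-type and 114 to 173 in knockout arrays. Among them, RBCS at its brightest probe was higher on every knockout array than on any wild-type array, with -0.09, -1.38 and -1.02 in the wild-type and 1.20, 0.90 and 0.13 in the knockout replicates (1.58 ± 0.41 SE; limma adjusted p = 0.112), and its part in any result was not tested. The sum of the wall synthases was 18.6 to 22.1 and 14.5 to 26.1. Each genotype was hybridised on a slide of its own, and a slide effect therefore cannot be told apart from genotype. Knockout arrays were more spread, with a median SD per probe of 0.253 against 0.127. Over the tested probes knockout replicate 1 correlated at 0.972 with knockout replicate 2 and at 0.968 with knockout replicate 3. Knockout replicates 2 and 3 correlated at 0.984 with each other. With wild-type replicates 1, 2 and 3, knockout replicate 1 correlated at 0.971, 0.965 and 0.961. Knockout replicate 2 correlated at 0.968 with each of them, and knockout replicate 3 at 0.972, 0.981 and 0.976. Wild-type arrays correlated at 0.991 to 0.992 with each other. The OsCAld5H1 probe read -0.54, -0.52 and -0.05 in wild-type replicates 1, 2 and 3 and -4.00, -1.78 and -1.23 in knockout replicates 1, 2 and 3 (limma adjusted p = 0.205).

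Transcripts of 6 of the 7 genes were detected in every array of both genotypes, and none passed the test for a difference between them. Of the 14 tested probes 0 had an adjusted p under 0.05 (limma with Benjamini-Hochberg over 32135 probes), against 3.16% of all probes tested. An unadjusted p under 0.05 was seen at 1 of the 14, a probe of BRI1, against 19.1% of all probes. The arrays of the genotypes did not overlap at 3 of the 14, against 27.0% of all probes. These shares were no higher than the background. All 6 probes of the 3 signalling genes had a higher knockout mean, with differences from 0.10 to 0.54 and a median of 0.24. The 8 tested synthesis probes ran from -0.78 to 0.17 with a median of -0.03. The 4 of D11 were higher, and the 3 of BRD1 and the 1 of D2 lower. Probes of a gene are repeated readings of it, and the difference between the classes was not tested. Over all tested probes the median was 0.0046, and 50.6% of them had a higher knockout mean.

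**Figure D1:**
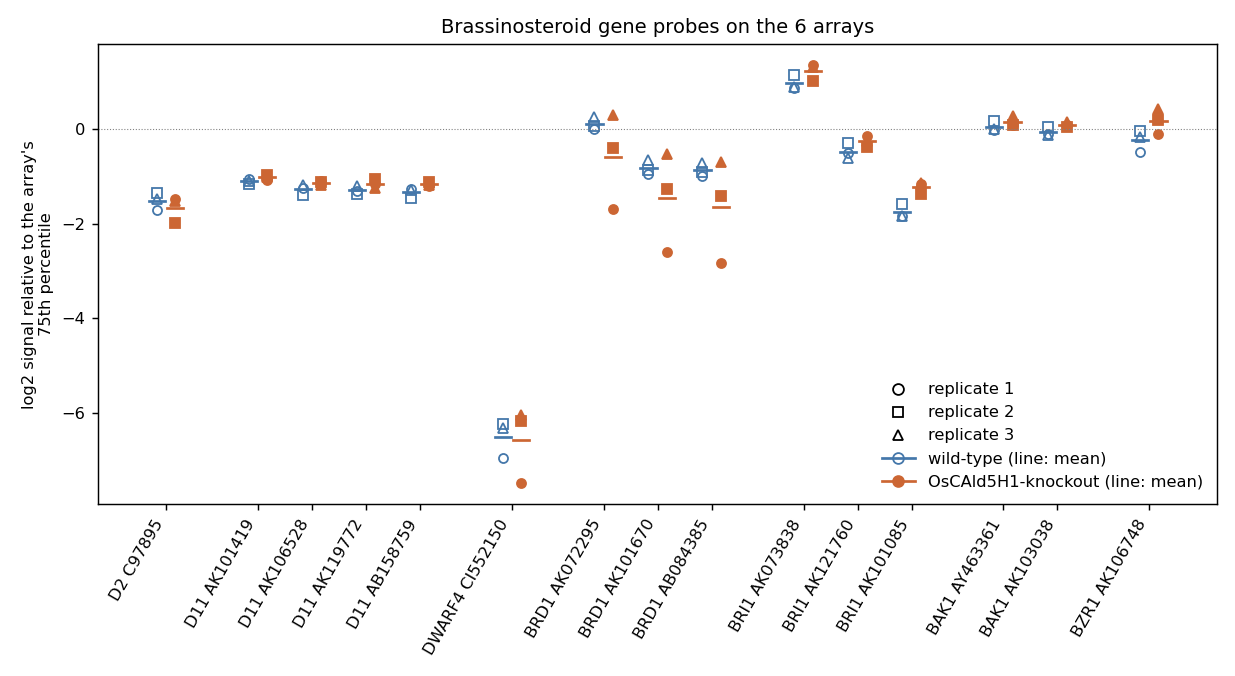
Log2 signal of the 15 brassinosteroid gene probes (horizontal axis: gene and the cDNA or EST behind the probe) on each of the 6 arrays, relative to the array's 75th percentile. Open blue symbols are wild-type and filled orange symbols knockout, with symbol shape for the replicate number and a line for the mean of 3. The 3 BRD1 probes are widely spread in the knockout, and the DWARF4 probe lies far below the others.

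Among the enzymes, D11 was the steadiest. D11 (Os04g0469800, chromosome 4) is a cytochrome P450 of the CYP724 family that hydroxylates the sterol side chain. It has 4 probes, all annotated to coding sequence and 3′ untranslated region. The brightest, from cDNA AK101419, read -1.06, -1.16 and -1.10 in the wild-type and -1.08, -0.98 and -1.02 in the knockout replicates. The arrays of the genotypes overlapped, and the difference was 0.08 ± 0.10 (SE, n = 3 per genotype; limma adjusted p = 0.704). The other D11 probes differed by 0.14, 0.14 and 0.17. Their 95% intervals and that of the brightest probe reached from 0.894-fold at the lowest to 1.34-fold at the highest, so a doubling or halving lay outside all of them. The arrays did not overlap at the probe from AB158759, where wild-type replicates read -1.27, -1.45 and -1.29 and knockout replicates -1.20, -1.12 and -1.19 (adjusted p = 0.451). With normexp background correction and quantile normalisation together, called the normexp setting below, the probe from AK106528 turned to -0.16, while the other 3 stayed positive.

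D2 (Os01g0197100, chromosome 1) is the P450 CYP90D2, which acts later on the route to the active hormone. It was measured by 1 probe, designed from the expressed sequence tag C97895, to which the files assign no transcript model. It read -1.71, -1.34 and -1.49 in the wild-type and -1.49, -1.98 and -1.52 in the knockout replicates. Knockout replicate 2 was the lowest of the 6, and the other 2 knockout arrays fell inside the wild-type range. The difference was -0.15 ± 0.18 (adjusted p = 0.701), and 0.0095 without knockout replicate 2.

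BRD1 (Os03g0602300, chromosome 3), the P450 CYP85A1, carries out the oxidation that yields castasterone, the main active brassinosteroid of rice. Its brightest probe, from AK072295, read -0.0016, 0.06 and 0.25 in the wild-type replicates. In knockout replicates 1, 2 and 3 it read -1.69, -0.40 and 0.31. Knockout replicates 1 and 2 thus lay below every wild-type array and replicate 3 above them all. The 2 other probes, from AK101670 and from the coding-sequence cDNA AB084385, gave the same order. AK101670 read -0.95, -0.86 and -0.65 in the wild-type and -2.60, -1.26 and -0.53 in the knockout. AB084385 read -0.99, -0.90 and -0.72 and then -2.83, -1.41 and -0.70. Knockout replicate 3 was above the wild-type arrays there by a narrow margin, at -0.699 against -0.716. All 3 probes are annotated to 1 transcript model, so they are repeated readings of it.

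The knockout SD of BRD1 was 6.83 to 7.83 times the wild-type SD at its 3 probes, against 0.331 to 1.49 times at the other 11 tested probes. Among other genes of the pathway, wild-type and knockout SDs were 0.019 and 0.416 for BRD2 and 0.100 and 0.708 for RLA1. For DET2 they were 0.236 and 0.138. A knockout SD several times the wild-type SD was thus not particular to BRD1. Its knockout SDs themselves, 1.01 to 1.08, were larger than those of BRD2 and RLA1. The BRD1 differences were -0.70 ± 0.48, -0.64 ± 0.50 and -0.78 ± 0.51 (SE), with adjusted p from 0.466 to 0.537. Their 95% intervals ran from 0.246-fold of the wild-type level at the lowest up to 1.49-fold at the highest. Single arrays set their size: without knockout replicate 1 the differences were -0.15, -0.07 and -0.19, and without knockout replicate 3 they were -1.15, -1.11 and -1.25 (adjusted p from 0.166 to 0.187). In knockout replicate 1 the OsCAld5H1 probe and all 3 secondary wall cellulose synthases were at their lowest. CESA4 read 2.06 against 2.28 to 2.89 elsewhere, CESA7 3.35 against 3.74 to 4.20 and CESA9 -3.09 against -1.69 to -1.30. Their part in the BRD1 values was not tested. In RNA of a whole internode piece, fewer cells of a type and less RNA per cell cannot be told apart.

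DWARF4 (Os03g0227700, chromosome 3), the P450 CYP90B2, hydroxylates the side chain as D11 does. Its 1 probe, from the expressed sequence tag CI552150, was close to background. It read -6.96, -6.24 and -6.33 in the wild-type and -7.50, -6.17 and -6.05 in the knockout replicates. It was well above background on 2 arrays of each genotype and dim in replicate 1 of both, so it was not tested. With no filter on dim probes its difference was -0.06, with a 95% interval from -1.13 to 1.01, which includes both a doubling and a halving.

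On the signalling side, BRI1 (Os01g0718300, chromosome 1) had the lowest unadjusted limma p of the tested member genes, 0.0061 at 1 of its 3 probes. Its 3 probes come from 3 cDNAs, each annotated to a different transcript model of the locus. The probe from AK101085, for model Os01t0718300-01, read -1.85, -1.59 and -1.85 in the wild-type and -1.15, -1.38 and -1.14 in the knockout replicates. Every knockout array was above every wild-type array. The difference was 0.54 ± 0.13 (SE), or 1.45-fold with a 95% interval from 1.16-fold to 1.81-fold, and the adjusted p of 0.0996 missed the threshold.

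The other BRI1 probes differed by less. The brightest, from AK073838, read 0.88, 1.14 and 0.90 in the wild-type and 1.36, 1.01 and 1.31 in the knockout, a difference of 0.25 ± 0.15 (adjusted p = 0.405). The probe from AK121760 read -0.52, -0.31 and -0.61 and then -0.15, -0.37 and -0.25, a difference of 0.22 ± 0.13 (adjusted p = 0.414). At each of these, knockout replicate 2 lay inside the wild-type range and the other 2 knockout arrays above it. Whether the 3 probes differ in their response was not tested. In the normexp setting the differences were 0.32 for AK101085, 0.35 for AK073838 and 0.21 for AK121760, so their order turned with these 2 choices together.

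BAK1 (Os08g0174700, chromosome 8) was nearly level. Its brighter probe, from AY463361, read -0.02, 0.17 and 0.0021 in the wild-type and 0.09, 0.09 and 0.28 in the knockout replicates, a difference of 0.10 ± 0.12 (adjusted p = 0.697). The probe from AK103038 read -0.11, 0.04 and -0.13 and then 0.08, 0.05 and 0.15, where every knockout array was above every wild-type array by a narrow margin (0.16 ± 0.11; adjusted p = 0.463). The 95% intervals of both reached from 0.879-fold to 1.34-fold.

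BZR1 (Os07g0580500, chromosome 7) was measured by 1 probe, from AK106748. It read -0.48, -0.05 and -0.16 in the wild-type and -0.10, 0.18 and 0.43 in the knockout replicates. Knockout replicates 2 and 3 lay above the wild-type range and replicate 1 inside it. The difference was 0.40 ± 0.19 (SE; adjusted p = 0.313), with a 95% interval from -0.05 to 0.85.

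**Figure D2:**
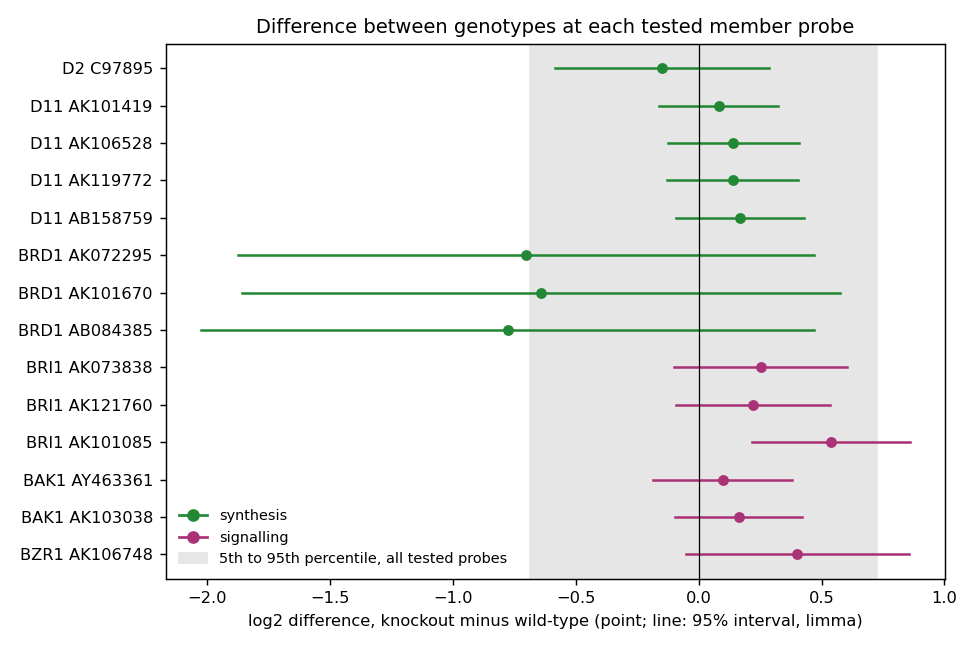
Log2 difference between knockout and wild-type at each tested probe (point) with its 95% interval from limma (line), green for synthesis and purple for signalling genes. The grey band spans the 5th to 95th percentile of all 32135 tested probes, -0.68 to 0.72. All 6 signalling points lie to the right of 0, and the BRD1 intervals are the widest.

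To set synthesis against signalling without comparing levels of unlike probes, each gene's brightest probe was expressed as its deviation from its own wild-type mean. Averaged over D2, D11 and BRD1, the deviation was -0.58, -0.28 and 0.09 in knockout replicates 1, 2 and 3. Over BRI1, BAK1 and BZR1 it was 0.18, 0.16 and 0.41. Synthesis minus signalling was therefore -0.76, -0.44 and -0.31 in the knockout, below the 0.05, -0.13 and 0.08 of the wild-type replicates. The mean gap was -0.51 ± 0.23 in the knockout (SD, n = 3). It carries no p-value, because the genes were chosen with results of these arrays already known. BRD1 set much of its size: without BRD1 the 3 knockout gaps were -0.15, -0.33 and -0.37 and their mean was -0.28. With knockout replicate 1 left out, the dim DWARF4 probe passed the filter and entered the synthesis mean, and the gap was -0.25. That value is therefore not the mean of the -0.44 and -0.31 above. Among the further loci of the pathway the median difference was on the other side of 0 for synthesis, at 0.40 for 5 other synthesis enzymes, -0.10 for 6 perception genes, -0.04 for 7 kinases and phosphatases and 0.27 for 6 transcription factors, and these medians were not tested against each other.

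**Figure D3:**
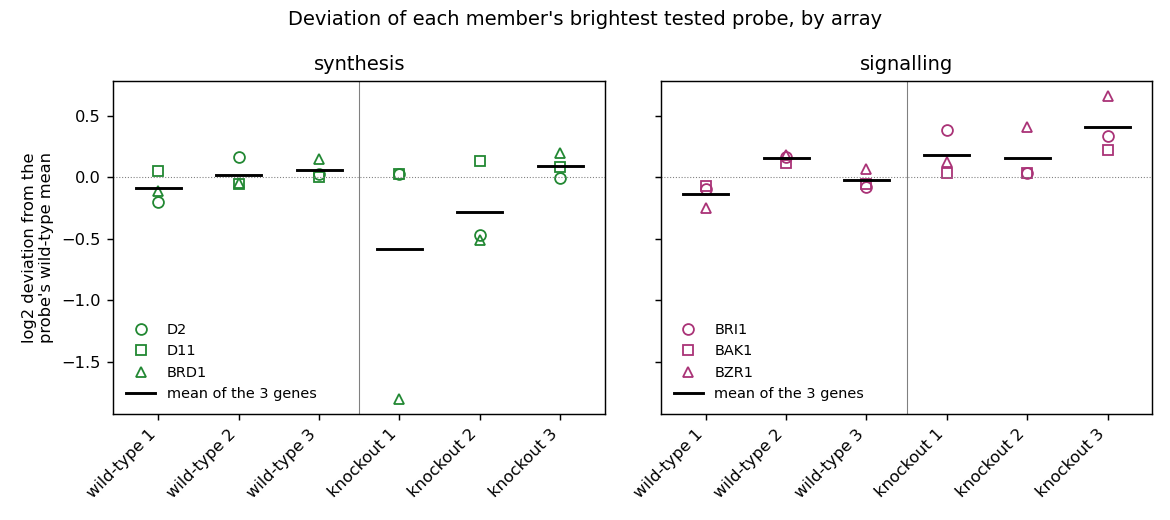
Log2 deviation of each gene's brightest tested probe from its wild-type mean, by array, for 3 synthesis genes (left) and 3 signalling genes (right). Black lines are means of the 3 genes. In knockout replicate 1 the synthesis mean of -0.58 comes from BRD1, with D2 and D11 close to 0, while every signalling point in the knockout lies above 0.

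The rest of the pathway was described from a list of 31 further brassinosteroid loci, of which 30 had a probe and 27 were tested at their brightest probe. None of the 27 rose or fell (limma, adjusted p under 0.05), where 3.41% of all loci did. At an unadjusted p under 0.05 there were 6, 4 of them higher and 2 lower, and at the same 6 the arrays of the genotypes did not overlap. That is 6 of 27 against 19.6% of all loci by the first count and 27.4% by the second. The median difference of the 27 was 0.05, and 0.0014 over all loci.

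Of the other synthesis enzymes, 0 of 5 passed the test. CPD1 and CPD2 are close paralogues of the CYP90A family on chromosomes 11 and 12, so their probes may share signal. CPD2 read -3.97, -3.85 and -3.76 in the wild-type and -3.41, -3.15 and -2.68 in the knockout replicates (0.78 ± 0.20 SE; adjusted p = 0.110). CPD1 read -2.85, -2.67 and -2.59 and then -2.47, -2.19 and -1.68 (0.59 ± 0.22; adjusted p = 0.219). With an array left out CPD2 differed by 0.58 to 0.95 (limma adjusted p from 0.0510 to 0.315). CPD1 then differed by 0.37 to 0.76 (limma adjusted p from 0.0832 to 0.473). Every knockout array of each was above every wild-type array, whereas BRD1 was below wild-type in 2 of 3 knockout arrays. BRD2, a sterol reductase early in the pathway, differed by 0.40 ± 0.21 (adjusted p = 0.381) and its arrays overlapped. It differed by 0.22 without knockout replicate 2 and by 0.63 without knockout replicate 3 (adjusted p = 0.0642). CYP90D3, a relative of D2, differed by 0.31 at its brighter probe, where the arrays overlapped. At its other probe it differed by 0.67 and every knockout array was above every wild-type array (limma adjusted p = 0.244). The steroid reductase DET2 differed by -0.01. Of 4 CYP734A enzymes that inactivate the hormone, 2 were tested and 0 passed. CYP734A4 differed by -0.18 and CYP734A6 by 0.09, the latter -0.02 without wild-type replicate 2.

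Of 6 perception genes, 0 passed. SERK2, a kinase of the same family as BAK1, read 0.98, 1.25 and 1.02 in the wild-type and 0.72, 0.46 and 0.73 in the knockout at its brightest probe (-0.45 ± 0.14 SE; adjusted p = 0.153). Its 2 other probes differed by -0.48 and -0.43, and at all 3 every knockout array was below every wild-type array. BAK1 and SERK2 thus lay on opposite sides of 0. TUD1, a ubiquitin ligase that acts with the G protein subunit D1, read -0.13, -0.21 and -0.27 and then 0.39, 0.07 and 0.24 (0.44 ± 0.12; adjusted p = 0.134). The receptor homologue BRL1 differed by -0.16, and by -0.024 without knockout replicate 2.

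Downstream of the receptor 0 of 7 kinases and phosphatases passed. GSK2, the kinase that restrains BZR1, read -3.67, -3.61 and -3.65 in the wild-type and -3.85, -3.92 and -3.88 in the knockout replicates. All knockout arrays were lower, by a small amount (-0.24 ± 0.10 SE; adjusted p = 0.258). The Kelch-domain phosphatases PPKL2 and PPKL3 differed by -0.10 and 0.09. Of 6 transcription factors 0 passed. DLT, a GRAS protein of the pathway, was dim at -5.37, -5.50 and -5.56 in the wild-type and -4.79, -5.13 and -5.20 in the knockout (0.44 ± 0.15; adjusted p = 0.186), and differed by 0.10 in the normexp setting. RLA1 differed by 0.43 ± 0.34 and BZR4 by 0.31 ± 0.35, each highest in knockout replicate 1. Without that array they were at 0.02 and -0.08. IBH1, a helix-loop-helix repressor of cell elongation, was the 1 growth regulator tested and differed by 0.12, with 0.0059 without knockout replicate 3 and 0.24 without knockout replicate 2.

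**Figure D4:**
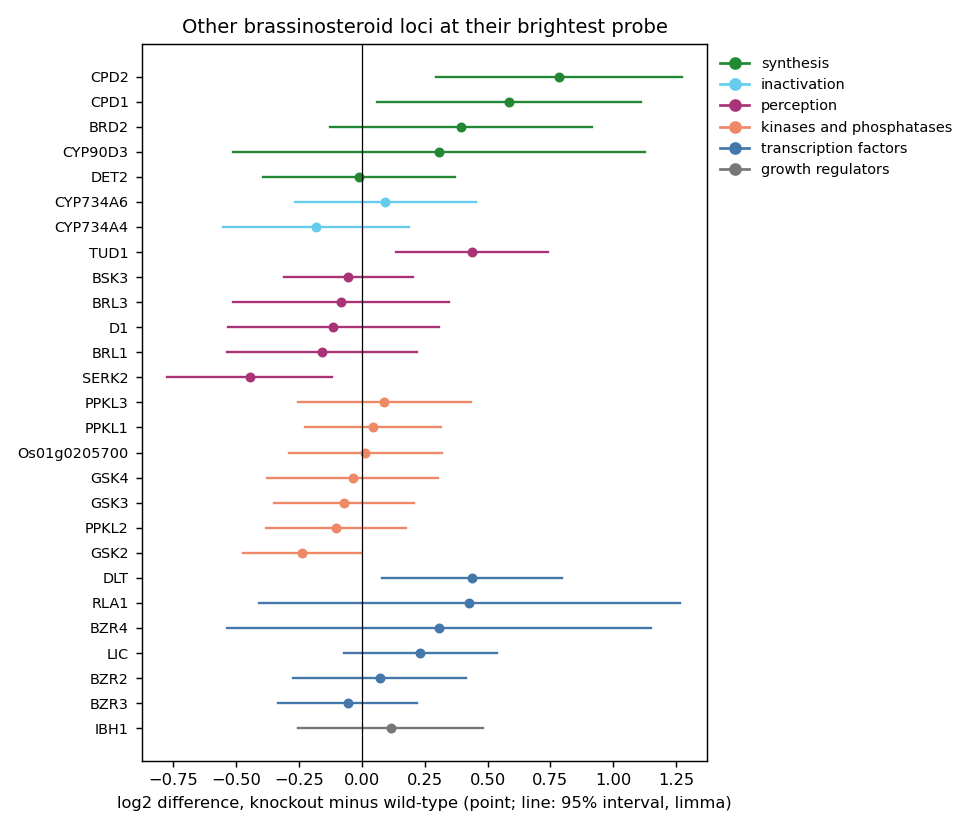
Log2 difference between knockout and wild-type of the 27 tested further brassinosteroid loci at their brightest probe (point) with the 95% interval from limma (line), coloured by role. CPD2 and CPD1 have the largest positive differences, 0.78 and 0.59, SERK2 the largest negative, -0.45, and none passed after adjustment.

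Likeness of pattern was measured as the root mean square difference between log2 deviations from the 6-array mean, over 6 arrays and 32 candidate genes of the pathway. The gene nearest to BRI1 was IBH1, at 0.108. Nearest to BZR1 was CPD1, at 0.147, and nearest to BAK1 was PPKL1, at 0.054. D2 had BRL1 at 0.086 and D11 had PPKL1 at 0.109. The gene nearest to BRD1 was D1, at 0.522, against a median of 0.708 over the candidates. The deviations of BRD1 itself had a root mean square of 0.687. The distance is not scaled, so a probe that varies much lies far from probes that vary little. These distances therefore cannot show whether the pattern of BRD1 was distinct. A small distance marks 2 probes that varied alike or that hardly varied. D11 is of the second kind, since its own deviations had a root mean square of 0.059.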

How the data were processed

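Cy3-labelled RNA of 6 internode samples was hybridised to 1-colour Agilent rice arrays. Per the submitters' processing notes the software was Agilent Feature Extraction 12.0.3.1. It produced the deposited intensity of each spot, corrected for background and spatial trend, per the file headers, but not scaled across arrays, together with median intensities and 0/1 flags. In the authors' deposited value table, each column is that intensity times 1 constant per array, and the column medians were 379, 379 and 376 (wild-type replicates 1, 2 and 3) and 388, 385 and 387 (knockout). It is linear and uncentred; the origin of the constants is not given in the sources.

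Processed signals were put on the log2 scale and reduced by their 75th percentile over the 43734 gene spots of the array. The design's 590 control spots and 5 to 9 outlier spots per array were left out. Between 73.5% and 77.4% of gene spots were well above background and 0 were saturated. Precision is limited by the number of arrays. A probe was tested where over 0.5 of its spots were well above background on all 3 arrays of a genotype and at least 2 arrays of both had a measured value. Genotype was the only term of the fit (limma 3.58.1, R 4.3.3), tested two-sided with Benjamini-Hochberg adjustment at 0.05. Where several probes of a locus are not all given, the brightest stands for it. In simulated data of the 32135 probes, limma recovered 39% of 100 changed by 2-fold and 63% of 100 changed by 4-fold. The simulated noise was independent between arrays and had the same SD in both genotypes. The real knockout arrays were more spread, so these shares need not hold for them.

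The members and lists were chosen with earlier results of these data known. Genes named besides the members are the 3 largest differences per role and any past the threshold. CYP90D3 and DET2, the spreads of BRD2 and RLA1, and the array values of CESA4, CESA7 and CESA9 were added after their values were seen. Gene names come from prior knowledge. All 7 member names and 18 of 31 listed names occur in the RefSeq table (assembly ASM3414082v1), 24 of these 25 on the chromosome of the locus. The exception, GSK1, is drawn by its locus identifier. Chromosomes are those in the locus identifiers.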

Additional observations from a re-analysis of the deposited data

How the results depend on the processing

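No member probe and no other brassinosteroid locus passed under any of 15 alternatives, and adjusted p of the BRI1 probe from AK101085 ran from 0.0950 to 0.332. Of 210 repeated values of the tested member probes, 208 kept their sign. The others were D11 AK106528 at -0.16 with normexp (offset 50) plus quantile normalisation and D2, which ran from -0.25 to 0.0095 with an array left out. Among the named other loci, IBH1 turned to -0.092 and PPKL2 to 0.10 in that same setting, and with an array left out CYP734A6 ran from -0.024 to 0.17, BZR4 from -0.078 to 0.61 and PPKL3 from -0.026 to 0.17. The cause was not tested. The synthesis-minus-signalling gap ran from -0.60 to -0.25 with an array left out, and was -0.28 without BRD1, an alternative chosen after seeing the data. Where replicate 1 of either genotype was left out, DWARF4 passed the filter and entered the synthesis mean, as in the -0.25. The count over all probes, 1017, was 645 with no filter on dim probes. With an array left out it ran from 143 (without wild-type replicate 3) to 1539 (without knockout replicate 1). The fit did not pair arrays by replicate number. Deviations of same-numbered arrays from their genotype means correlated at 0.409, -0.174 and 0.163, and those of differently numbered arrays at -0.487 to 0.349. With 3 arrays per genotype these values cannot settle whether the arrays pair. With a replicate block 458 probes passed. Slide could not enter as a block, since each slide holds 1 genotype. The dim DWARF4 probe limits what can be said of that gene.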
